A study of Homo sapiens with 6 samples.

Results

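Iron handling in SU-DHL-8 cells was followed through 10 genes, chosen by symbol: the ferritin chains FTL and FTH1, the ferritin cargo receptor NCOA4, the import genes TFRC and SLC11A2, the exporter SLC40A1, the iron sensors IREB2 and ACO1, and the haem oxygenases HMOX1 and HMOX2. All 10 were found among the 65746 gene symbols of the deposited count table. SU-DHL-8 is an established human diffuse large B-cell lymphoma line with an unmodified (wild-type) genotype per the labels. Cells received 15 µM beta-sitosterol (beta-ST, a plant sterol) or the solvent DMSO alone for 24 h, with 3 libraries per group. The labels speak of replicate experiments without naming cultures or days, so the p-values measure the spread between these libraries.

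Cells take up iron bound to transferrin through the transferrin receptor, and the divalent metal transporter carries it from the endosome into the cytosol. Iron that is not used is stored inside ferritin, a shell of heavy and light chains, and is released again when NCOA4 carries ferritin to the lysosome. When iron is scarce, the iron regulatory proteins encoded by ACO1 and IREB2 bind hairpins in messenger RNA called iron-responsive elements. Binding in a 5′ UTR blocks translation, as for ferritin, and binding in a 3′ UTR protects the message, as for the transferrin receptor. Haem oxygenases free iron by opening the haem ring. FTL, FTH1 and HMOX1 are also known targets of the oxidative stress factor NRF2. Read counts show message levels and do not show translation or binding.

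These elements are shown because they divide the genes into those held back at translation and those stabilised as RNA. A script searched GENCODE v29 coding transcripts (GRCh38) for a bulged C, any 5 bases, then CAGTG and a last loop base other than G, on the transcript strand, outside the coding sequence. At least 4 of the 5 bases after the bulged C had to pair, G-T pairs included, with the 5 bases after the loop. Each line gives 29 bases, 5′ to 3′, with the bulged C and the 6-base loop in capitals. FTL and FTH1 carry theirs in the 5′ UTR, as does SLC40A1. TFRC has 4 matches and SLC11A2 has 1, all in the 3′ UTR.
FTL 5′ UTR, chr19:48965335-48965363, + strand: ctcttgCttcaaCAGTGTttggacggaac
FTH1 5′ UTR, chr11:61967574-61967602, − strand: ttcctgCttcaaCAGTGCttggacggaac
SLC40A1 5′ UTR, chr2:189580661-189580689, − strand: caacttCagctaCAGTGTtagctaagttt
TFRC 3′ UTR, chr3:196050979-196051007, − strand: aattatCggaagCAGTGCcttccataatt
TFRC 3′ UTR, chr3:196050575-196050603, − strand: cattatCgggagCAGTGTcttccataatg
TFRC 3′ UTR, chr3:196050510-196050538, − strand: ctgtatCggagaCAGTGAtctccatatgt
TFRC 3′ UTR, chr3:196050463-196050491, − strand: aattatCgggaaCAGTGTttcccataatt
SLC11A2 3′ UTR, chr12:50988269-50988297, − strand: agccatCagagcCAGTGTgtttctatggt

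The SLC11A2 match pairs at 4 of 5 stem positions and lies in 5 of its 18 coding transcripts, and the others printed pair at 5 of 5. The FTH1 element lies in 7 of 8 coding transcripts, the TFRC elements in 3 of 4 and the SLC40A1 element in 1 of 5. The counts are per gene and do not separate SLC11A2 transcripts with the element from those without it. Matches pairing at 4 of 5 positions were also found in 1 transcript each of IREB2 and ACO1, in the 3′ UTR. The same search found a match in the 5′ UTR of 0.991% and in the 3′ UTR of 3.42% of 19677 protein-coding genes. A match is a description of the letters and not evidence of binding.

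Libraries held 26453281 to 35565620 counts. DMSO libraries varied more than treated ones, with a median SD of 0.275 log2 units against 0.0862, and DMSO replicate 2 correlated least with the other DMSO libraries (r of log2 CPM 0.9818 and 0.9716). The B-cell markers MS4A1, CD79A, CD79B, PAX5, CD22, BLK and EBF1 were detected in every library. CPM is the count scaled to library size with TMM factors. Of these markers MS4A1 and CD79A were higher and PAX5 and EBF1 lower. The 7 macrophage markers summed to 4.86 to 7.16 CPM in DMSO and 6.21 to 8.40 CPM in treated libraries, most of it LYZ, with FCGR3A at 0 throughout. The 5 T-cell markers summed to 1.70 to 1.99 CPM and 1.12 to 1.55 CPM, with 3 at 0 throughout. The 6 erythroid markers summed to at most 0.364 CPM in any library.

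After beta-sitosterol, 3 iron genes rose: HMOX1 about 6.47-fold from a very low level, FTL 2.44-fold from a high level, and ACO1 1.44-fold. The other 6 tested genes missed the threshold, among them the heavy ferritin chain, both import genes and the sensor gene IREB2. SLC40A1, the gene of the cellular iron exporter, was at the limit of detection and could not be tested. Of 9 tested members 3 were higher and 0 lower, where 19.0% of all 11525 tested genes were higher and 21.8% lower (edgeR adjusted p below 0.05, 40.8% in either direction). Of all calls 46.5% were higher with edgeR, 24.3% on log2(TPM + 1) and 23.5% on log2(TPM + 0.1). The median log2 fold change was 0.13 over the 9 members and -0.04 over all tested genes. HMOX1 met the count minimum through the treated libraries alone, so its call is bound up with passing the filter. Among the 8 members that met it in both groups, 2 were higher and 0 lower. Among all 10590 genes that met it in both groups, 1884 were higher and 2424 lower. Values of the 2 groups did not overlap for 3 of the 9 tested members, against 56.1% of all tested genes. In all 3 the treated libraries lay above, as in 27.0% of all tested genes.

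**Figure D1:**
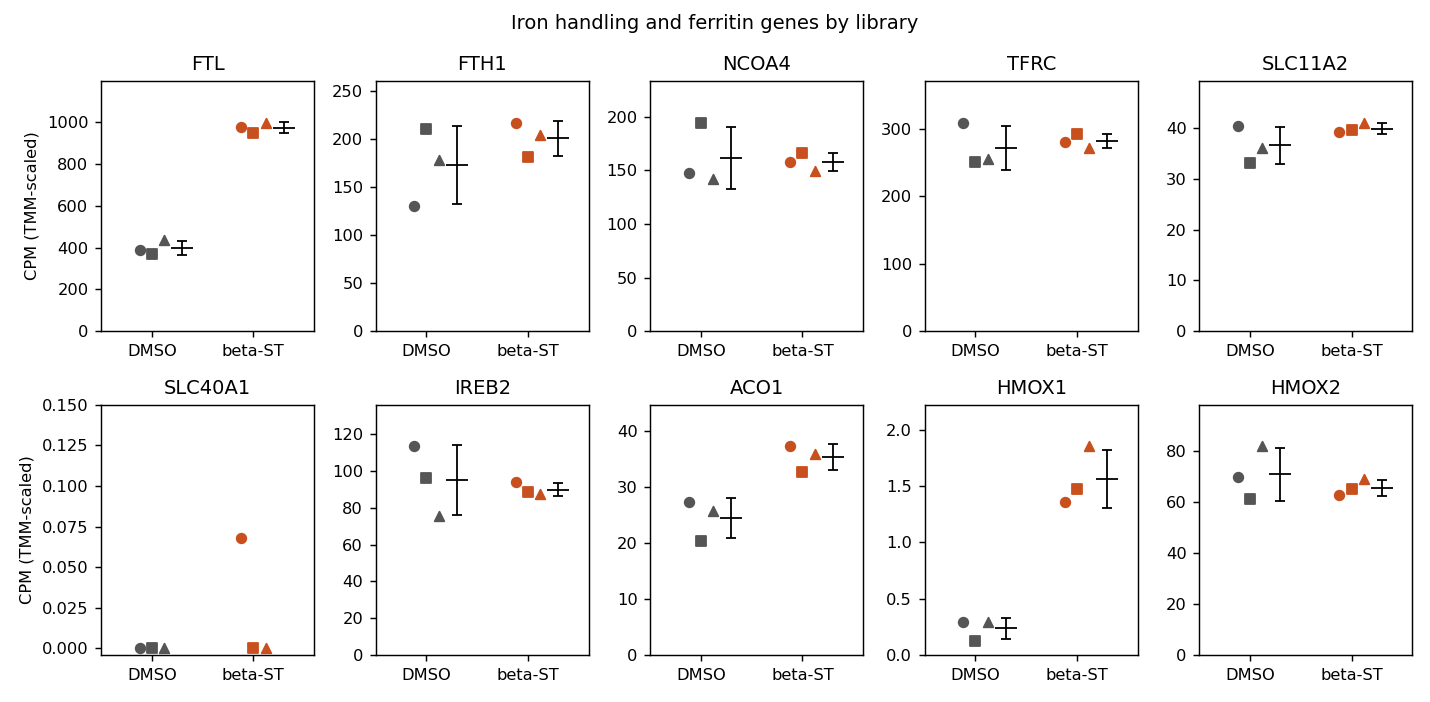
CPM (TMM-scaled, linear axes that differ between panels) of each of the 10 genes in the 3 DMSO libraries (grey) and the 3 beta-ST libraries (orange); circles, squares and triangles are replicates 1, 2 and 3, and bars give mean and SD except for SLC40A1. The groups stand apart for FTL, ACO1 and HMOX1 and overlap for the other 7.

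FTL (ENSG00000087086, chromosome 19, 48965301 to 48966878, + strand) encodes the ferritin light chain, which helps build the iron core. It stood at 390, 371 and 434 CPM in DMSO replicates 1, 2 and 3 and at 975, 947 and 997 CPM in the treated replicates. Every treated library lay more than 500 CPM above every DMSO library, and the spread within each group was small beside that gap. The means were 398 ± 32.6 and 973 ± 24.8 CPM (SD, n = 3 per group). On the log2 scale the difference was 1.29 ± 0.11 (SE), with an edgeR adjusted p of 1.67e-04. Scaled by GENCODE v29 exon length, FTL ranked 54 to 62 among 19456 protein-coding genes in DMSO libraries and 23 to 25 in treated ones.

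The size of the FTL rise moved with gene length. Short genes were higher after treatment as a class: in the shortest decile of tested genes with a GENCODE v29 length, 384 to 2151 bases, the median log2 fold change was 0.50 and 41.6% were called higher. In the longest decile the median was -0.36 and 39.8% were called lower. FTL, with 878 exonic bases, belongs to the shortest decile, where 17.1% of genes had a larger log2 fold change. Removing the trend on GENCODE length was a choice made once the data had been seen, and it left FTL at 0.45 (edgeR adjusted p = 0.0455). With the trend on the length implied by the deposited tables removed it was 0.84 (edgeR adjusted p = 0.00138). On log2(TPM + 1) it was 1.03 and missed the threshold (limma adjusted p = 0.0536). With log2(TPM + 0.1) it was also 1.03 and passed (limma adjusted p = 0.0477). The deposited TPM were used without rescaling, and their totals differed between libraries. Listed TPM summed to 39.5% of a full total in DMSO replicate 2 and to 57.0% to 69.2% elsewhere. The part of these totals in the TPM results was not tested.

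**Figure D2:**
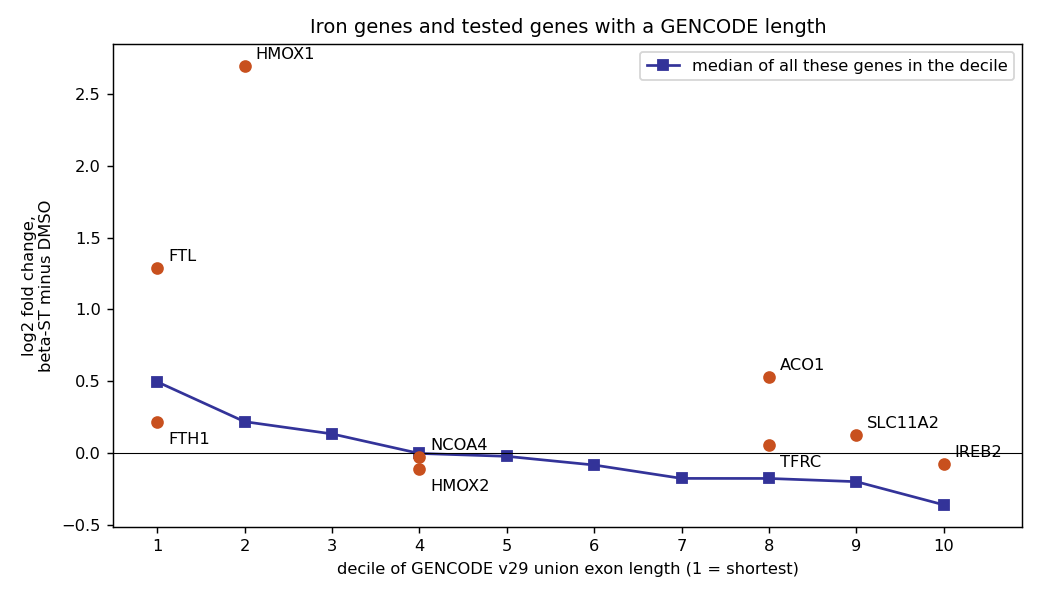
Log2 fold change (beta-ST minus DMSO) of the 9 tested iron genes (orange points) by the decile of GENCODE v29 union exon length (the summed length of all annotated exonic bases) on the x axis, with the median of all tested genes that have a length in each decile (blue squares). The median falls from 0.50 in decile 1 to -0.36 in decile 10; FTL lies above and FTH1 below the median of decile 1, which holds both.

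FTH1 (ENSG00000167996, chromosome 11, 61959718 to 61967660, − strand) encodes the heavy chain, which oxidises ferrous iron so that it can be stored. It stood at 130, 210 and 177 CPM in DMSO replicates 1, 2 and 3 and at 217, 181 and 204 CPM in the treated replicates. The groups overlapped, and DMSO replicate 2 lay above 2 of the 3 treated libraries. The log2 fold change was 0.22 ± 0.18 (SE; 95% interval -0.19 to 0.62; edgeR adjusted p = 0.36), so a rise as large as that of FTL lies outside the interval. Without DMSO replicate 2 it was 0.38 and passed (edgeR adjusted p = 0.0143), and with the GENCODE length trend removed it was -0.18.

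FTH1 counts carry 2 further limits. Its annotated exons share 1267 bases with those of BEST1 on the other strand, and the use of strand in counting is not given in the sources used here. BEST1, a chloride channel gene, held 18 to 24 counts in DMSO and 59 to 85 in treated libraries, against 4445 to 6702 for FTH1. Many processed copies of the ferritin chains also exist in the genome. Of 25 rows named as FTH1 pseudogenes 2 had any count, FTH1P7 (7 in DMSO and 22 in treated libraries) and FTH1P15 (3 and 7). Of 19 FTL pseudogene rows 2, FTLP5 and FTLP12, had 1 count each. How reads shared between a gene and its copies were treated is not given in the sources used here, so the counts of FTL and FTH1 are uncertain.

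The light chain stood higher against the heavy chain in every treated library. The log2 ratio of FTL to FTH1, from deposited TPM (a level the authors scaled for length and depth), was 4.99, 4.22 and 4.70 in DMSO replicates 1, 2 and 3 and 5.58, 5.79 and 5.69 in the treated replicates. All treated values lay above all DMSO values, and the mean difference was 1.05. The exact two-sided permutation test gave p = 0.1, the smallest that 3 against 3 samples allow. Levels of the 2 genes relative to each other depend on the length used. Per kilobase of GENCODE v29 exon length the ratio was 4.08 to 6.91 in DMSO and 10.4 to 12.1 in treated libraries. The deposited TPM put it at 18.7 to 31.7 and 47.7 to 55.5, because the length they imply is 0.418 times the GENCODE value for FTL and 1.92 times for FTH1. The difference between groups does not depend on this choice. It was smaller once the GENCODE length trend was removed: the log2 fold changes of FTL and FTH1 then differed by 0.63, against 1.07 in the edgeR counts.

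NCOA4 (ENSG00000138293 in the deposited table; in GENCODE v29 this symbol is at chromosome 10, 46005088 to 46030714, − strand) encodes the receptor that hands ferritin to autophagy. It stood at 148, 195 and 142 CPM in DMSO replicates 1, 2 and 3 and at 158, 167 and 150 CPM in the treated replicates. The treated values lay inside the DMSO range, whose top was replicate 2. The log2 fold change was -0.03 (95% interval -0.36 to 0.30; edgeR adjusted p = 0.89).

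TFRC (ENSG00000072274, chromosome 3, 196027183 to 196082189, − strand) encodes the transferrin receptor, which many dividing lymphoid cells carry at high level. Its values were 309, 250 and 256 CPM in DMSO replicates 1, 2 and 3 and 281, 293 and 272 CPM in the treated replicates. The treated libraries fell between the DMSO values, DMSO replicate 1 being highest. The log2 fold change was 0.05 ± 0.12 (SE; 95% interval -0.22 to 0.33; edgeR adjusted p = 0.75). The log2 TPM ratio of FTL to TFRC, storage against import, was 4.96, 5.19 and 5.39 in DMSO replicates 1, 2 and 3 and 6.42, 6.32 and 6.50 in the treated replicates. The groups did not overlap and differed by 1.23 on average (exact two-sided permutation p = 0.1, the smallest possible). This difference moved with gene length, FTL being in length decile 1 and TFRC in decile 8. With the GENCODE length trend removed their log2 fold changes were 0.45 and 0.23, a difference of 0.23 against 1.24 in the edgeR counts. The ratio shares FTL with the previous one, so the 2 are not independent.

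SLC11A2 (ENSG00000110911, chromosome 12, 50979401 to 51028566, − strand) encodes the divalent metal transporter DMT1. It stood at 40.4, 33.1 and 36.1 CPM in DMSO replicates 1, 2 and 3 and at 39.1, 39.5 and 41.0 CPM in the treated replicates. Its log2 fold change was 0.13 (95% interval -0.16 to 0.41; edgeR adjusted p = 0.44). The groups overlapped because DMSO replicate 1 lay within the treated range. With the trend on the implied length removed its value was 0.51 and passed (edgeR adjusted p = 0.0278), and with the GENCODE length trend removed it was 0.37 and missed (edgeR adjusted p = 0.0572). SLC40A1 (ENSG00000138449, chromosome 2, 189560579 to 189583758, − strand) encodes ferroportin. It had 0 counts in all DMSO libraries, which allows up to 0.0866 to 0.0941 CPM per library, and 2 counts in treated replicate 1 alone. No difference was detectable at this depth.

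Of the sensor genes ACO1 passed the test and IREB2 did not. ACO1 (ENSG00000122729, chromosome 9, 32384603 to 32454769, + strand) encodes IRP1, which is cytosolic aconitase when it holds an iron-sulphur cluster and binds RNA when it does not. It stood at 27.3, 20.4 and 25.8 CPM in DMSO replicates 1, 2 and 3 and at 37.3, 32.8 and 35.9 CPM in the treated replicates. All treated libraries lay above all DMSO libraries, replicate 2 being lowest in both groups. The log2 fold change was 0.53 ± 0.15 (SE; edgeR adjusted p = 0.0203). It missed the threshold without treated replicate 1, 2 or 3 (edgeR adjusted p = 0.0915, 0.0537 and 0.078) and on log2(TPM + 1), where it was 0.24 (limma adjusted p = 0.53). As for FTL, the TPM were used without rescaling although their totals differed between libraries. ACO1 lies in length decile 8, whose median log2 fold change was -0.18, and its value was 0.69 with the GENCODE length trend removed.

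IREB2 (ENSG00000136381, chromosome 15, 78437431 to 78501456, + strand) encodes IRP2, which is degraded when iron is plentiful. Its values were 113, 96.1 and 75.7 CPM in DMSO replicates 1, 2 and 3 and 94.0, 88.7 and 87.3 CPM in the treated replicates. The treated libraries fell inside the wide DMSO range. The log2 fold change was -0.08 ± 0.16 (SE; 95% interval -0.44 to 0.28; edgeR adjusted p = 0.71). The log2 TPM ratio of IREB2 to ACO1 was 1.76, 1.94 and 1.25 in DMSO replicates 1, 2 and 3 and 1.03, 1.14 and 0.98 in the treated replicates. The groups did not overlap, the mean difference was -0.60, and the exact two-sided permutation test gave p = 0.1, the smallest possible.

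Of the haem oxygenases the inducible one passed the test and the constitutive one did not. HMOX1 (ENSG00000100292, chromosome 22, 35380361 to 35394214, + strand) encodes the stress-induced enzyme. It had 10, 4 and 10 counts in DMSO replicates 1, 2 and 3 and 40, 39 and 51 in the treated replicates, or 0.29, 0.13 and 0.29 CPM against 1.36, 1.48 and 1.85 CPM. Each treated library held at least 39 counts and no DMSO library more than 10. The log2 fold change was 2.69 ± 0.36 (SE; 95% interval 1.87 to 3.52; edgeR adjusted p = 8.47e-04). HMOX1 remained a low transcript after treatment, ranking 8900 to 9233 among 19456 protein-coding genes per length. On log2(TPM + 1), which compresses low genes, its value was 0.97 and passed (limma adjusted p = 0.00279). Both tests used the same filtered genes, which HMOX1 entered through the treated libraries alone. The macrophage marker sums given above overlapped between the groups, and their part in the HMOX1 and FTL values was not tested.

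HMOX2 (ENSG00000103415, chromosome 16, 4474690 to 4510347, + strand) encodes the constitutive enzyme. It stood at 69.8, 61.0 and 81.7 CPM in DMSO replicates 1, 2 and 3 and at 62.7, 65.0 and 68.9 CPM in the treated replicates. The treated values lay inside the DMSO range, and the log2 fold change was -0.11 (95% interval -0.42 to 0.20; edgeR adjusted p = 0.53). Its exons share 228 bases with NMRAL1 on the other strand, which stood at 41.2 to 67.7 CPM in DMSO and 49.6 to 53.5 CPM in treated libraries. The log2 TPM ratio of HMOX1 to HMOX2 was -5.34, -6.38 and -5.60 in DMSO replicates 1, 2 and 3 and -2.98, -2.91 and -2.67 in the treated replicates. HMOX2 thus stayed the higher of the 2 in every library. The difference was 2.92 (exact two-sided permutation p = 0.1, the smallest possible).

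**Figure D3:**
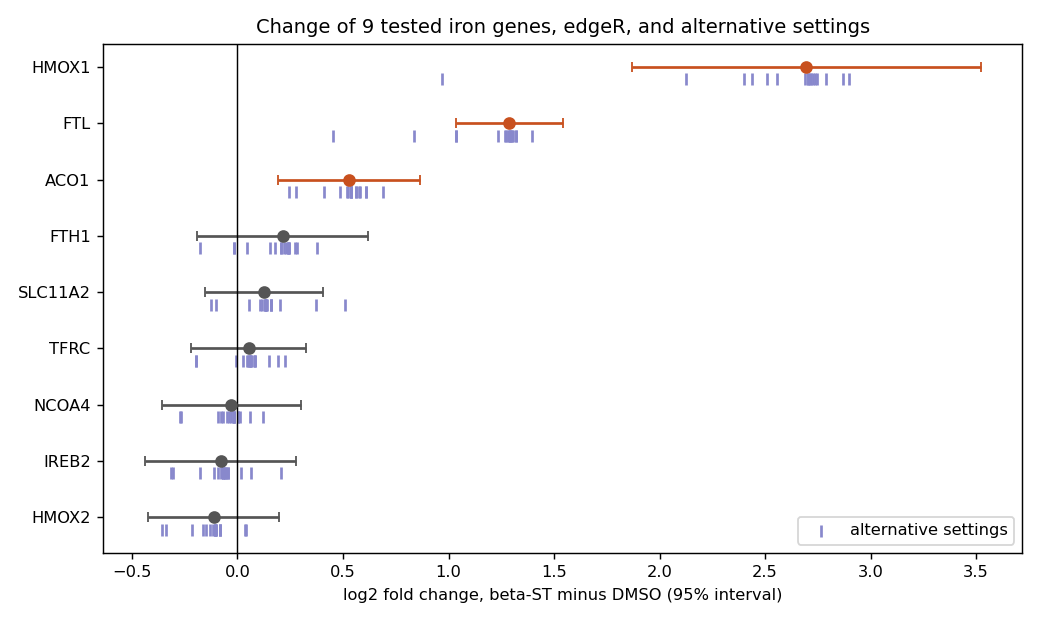
Log2 fold change (beta-ST minus DMSO) of the 9 tested genes with 95% intervals from edgeR, orange where the adjusted p was below 0.05, and blue ticks for the 17 alternative settings of each gene. Intervals of HMOX1, FTL and ACO1 lie above 0, and the alternatives of FTL reach from 0.45 to 1.39.

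Per kilobase of GENCODE exon length the order of levels in DMSO was FTL (454 ± 37.1 CPM per kb), FTH1 (85.1 ± 19.7), NCOA4 (39.6 ± 7.05), TFRC (34.5 ± 4.13), HMOX2 (18.7 ± 2.74), IREB2 (8.80 ± 1.75), SLC11A2 (3.60 ± 0.36), ACO1 (3.24 ± 0.48), HMOX1 (0.098 ± 0.040) and SLC40A1 at 0 (SD, n = 3). NCOA4 and TFRC lay within their spread of each other, as did SLC11A2 and ACO1. In treated libraries ACO1 (4.68 ± 0.31 CPM per kb) stood above SLC11A2 (3.93 ± 0.10), and the other genes kept their order.

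Promoters from RefSeq (GRCh38.p14, 250 bases before to 50 after the start) were matched for 8 of the 10 genes, FTH1 and HMOX1 being unmatched. The antioxidant response core TGACNNNGC, on either strand, was found only for NCOA4 among these 8, against 13.3% of 35116 promoters. The E-box CACGTG, bound by MYC among others, was found only for HMOX2, against 7.26%. No match says only that these letters are absent from this window.

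Around the 10 genes, a wider list of 83 iron and haem genes was read the same way, of which 63 could be tested. Of these, 22 were higher and 8 lower, 34.9% and 12.7%, against 19.0% and 21.8% of all tested genes. The median log2 fold change of the 63 was 0.17. SLC11A1 met the count minimum through the treated libraries alone. Among the 62 that met it in both groups, 21 were higher and 8 lower, against 1884 and 2424 of all 10590 such genes. Without DMSO replicate 2 the list had 13 lower genes, and without treated replicate 1 or 3 it had 5 or 4. On log2(TPM + 1) 6 genes were higher and 7 lower, and on log2(TPM + 0.1) 6 were higher and 6 lower. Of all calls on these scales 24.3% and 23.5% were higher. Listed at 0 in every library were FLVCR2, STEAP2, FTMT, HJV, FDX2, CIAO2A, CIAO2B and CIAO3, and nothing is said of their expression.

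Haem transport, breakdown and its control had 7 higher and 1 lower of 13, or 53.8% and 7.69%, against 19.0% and 21.8% of all tested genes. The role counts below are small and are read against the same shares. BLVRB, which encodes a reductase of flavins and of beta-type biliverdin, rose from 7.98 ± 4.59 to 47.2 ± 3.35 CPM (SD, n = 3 per group). ABCG2, an exporter that carries porphyrins among other substrates, rose to 3.49 ± 0.30 CPM, 1.53 above DMSO on the log2 scale. MAFF, a small MAF partner of NRF2 and BACH1, rose from 4.36 ± 0.53 to 10.1 ± 0.59 CPM. BLVRA, whose enzyme reduces the biliverdin that haem oxygenase makes, rose by 1.09 on the log2 scale (edgeR adjusted p = 0.021) and was named after its value was seen. The 1 lower gene was MAFK, from the same family, which fell by 1.10 on the log2 scale although its groups overlapped (edgeR adjusted p = 0.0318); it was named after its value was seen. The genes for NRF2 itself (NFE2L2) and for BACH1, a haem-binding repressor of HMOX1, missed the threshold, with log2 fold changes of -0.07 and 0.14 (edgeR adjusted p = 0.83 and 0.39); both were named after their values were seen.

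Haem synthesis had 3 higher and 2 lower of 8 (37.5% and 25%), the lower share being near that of all tested genes. UROD and FECH, which act at a middle and at the last step, both rose: UROD from 49.6 ± 11.6 to 82.8 ± 0.88 CPM, FECH from 19.7 ± 1.65 to 28.7 ± 2.04 CPM. ALAD, the second enzyme of the pathway, fell from 48.3 ± 1.25 to 31.1 ± 0.51 CPM. The other lower gene was CPOX and the other higher one UROS, named after their values were seen.

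Iron uptake and delivery genes were higher in 4 and lower in 1 of 10 (40% and 10%). SLC39A8, which carries zinc, manganese and iron, rose from 64.9 ± 8.79 to 121 ± 9.04 CPM. PCBP1, an iron chaperone that loads ferritin and also binds RNA, fell from 311 ± 68.1 to 173 ± 6.72 CPM. SLC11A1, a phagosomal metal transporter, rose from 0.13 ± 0.072 to 0.57 ± 0.071 CPM and met the count minimum through the treated libraries alone.

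Among 7 genes of IRP turnover and ferritin degradation 2 were higher and 1 lower (28.6% and 14.3%). SKP1, a subunit of the ligase that degrades IRP2, rose from 66.1 ± 8.11 to 152 ± 2.37 CPM, and TAX1BP1, an autophagy adaptor, rose from 64.9 ± 17.3 to 100.2 ± 4.73 CPM. HERC2, a ubiquitin ligase reported to act on NCOA4, fell from 166 ± 23.7 to 85.1 ± 3.84 CPM. FBXL5, the iron-sensing subunit of the IRP2 ligase, named after its value was seen, missed the threshold, its log2 fold change being 0.19 (edgeR adjusted p = 0.28).

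Iron-sulphur cluster genes were higher in 5 and lower in 3 of 21 (23.8% and 14.3%), near the shares of all tested genes. BOLA3 and NFU1, late-acting mitochondrial factors, both rose: BOLA3 from 14.4 ± 1.39 to 30.4 ± 0.60 CPM, NFU1 from 13.4 ± 3.61 to 30.6 ± 0.87 CPM. NDOR1, an electron donor for cytosolic cluster assembly, fell from 115 ± 22.1 to 66.1 ± 0.99 CPM. Of 2 tested genes of systemic iron control HFE rose, from 4.12 ± 0.33 to 5.94 ± 0.40 CPM.

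**Figure D4:**
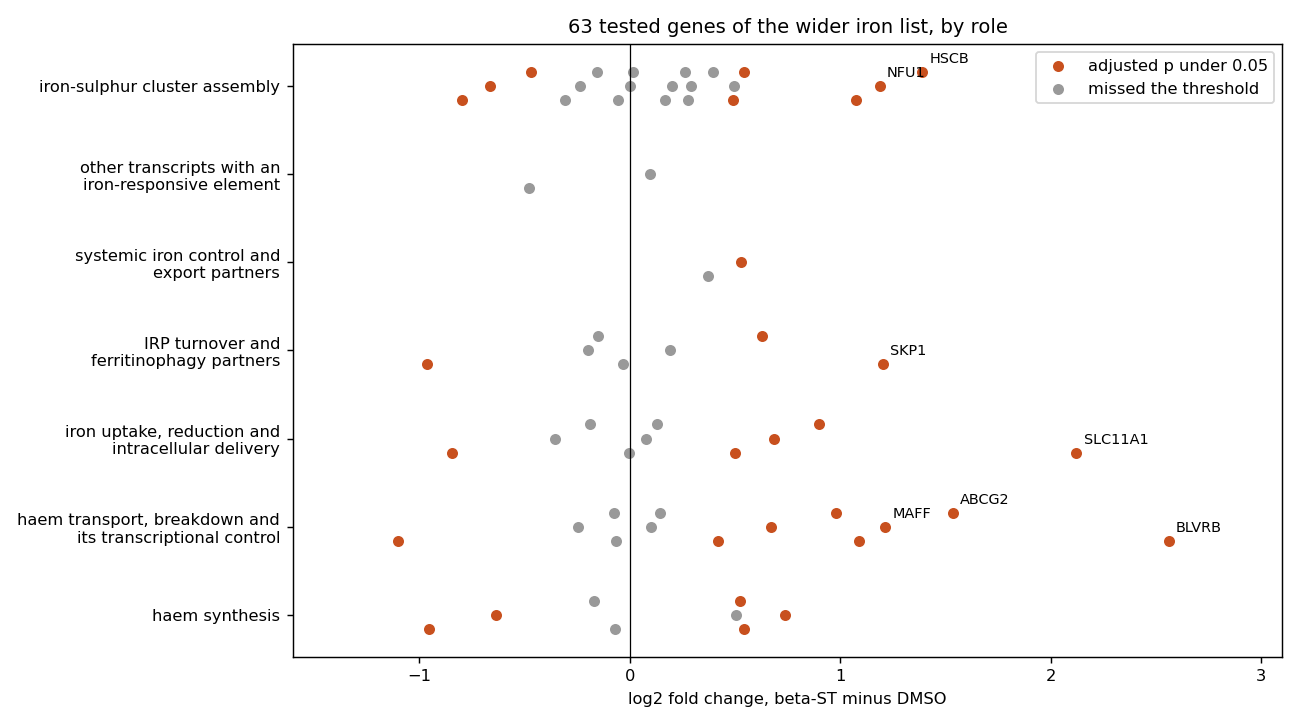
Log2 fold change (beta-ST minus DMSO) of the 63 tested genes of the wider iron list, one point per gene, by role on the y axis; orange points have an edgeR adjusted p below 0.05 and the genes farthest from 0 are named. Haem transport and breakdown genes reach farthest to the right, with BLVRB at 2.56.

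As a comparison outside iron handling, 10 known NRF2 targets were read in the same fit. Of 9 tested, 7 were higher and 0 lower (77.8% and 0%, against 19.0% and 21.8% of all tested genes), and the median log2 fold change was 0.49 (-0.04 over all). OSGIN1 met the count minimum through the treated libraries alone. Of the 8 targets that met it in both groups 6 were higher and 0 lower, against 1884 and 2424 of all 10590 such genes. OSGIN1 rose from 0.34 ± 0.065 to 4.45 ± 0.39 CPM, and GCLM, a subunit of the enzyme that starts glutathione synthesis, rose from 17.1 ± 1.23 to 45.2 ± 6.41 CPM. SRXN1 and PGD missed the threshold, with log2 fold changes of -0.03 and -0.24 (edgeR adjusted p = 0.96 and 0.11), and ME1 was not tested. SRXN1, PGD and ME1 were named after their values were seen. FTL, FTH1 and HMOX1, the members named above as known NRF2 targets, had log2 fold changes of 1.29, 0.22 and 2.69. Whether NRF2 acted on any of these genes here was not tested.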

How the data were processed

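RNA-seq of 6 SU-DHL-8 libraries was used, 3 per group. The authors deposited raw gene counts (whole numbers) and, for the same genes, TPM. Per the submitters' processing notes, fastp 0.23.2, STAR 2.7.10, featureCounts 2.0.1, StringTie 2.2.1 and GRCh38 were used. The annotation is not given in the sources used here. Of 65807 rows, 61 repeating a symbol were dropped, 2 of them with counts, leaving 65746 genes.

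The test was edgeR 4.0.16 in R 4.3.3 on the counts (quasi-likelihood F test, TMM, filterByExpr, 11525 genes tested, Benjamini-Hochberg over all of them, threshold 0.05, two-sided). The script was tested on simulated data. The SE was derived from F and the fold change. Ratios were tested by exact permutation. Alternatives used other scalings, filters, DESeq2 1.42.0, limma 3.58.1, a replicate block, removal of a length trend and each library left out.

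Counts over TPM, with the median of each library removed, gave 1 constant per gene, taken as an implied length. It lay within 1.2-fold of the GENCODE v29 union exon length for 28.8% of 10942 genes. Listed TPM summed to 39.5% of a full total in DMSO replicate 2 and to 57.0% to 69.2% elsewhere.

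Members and lists were chosen with earlier results of these data known. Named were all members, up to 3 called genes per role by smallest p, genes listed at 0, ferritin pseudogenes with counts, and the 2 comparison genes with the smallest p. Some results are not reported here.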

Additional observations from a re-analysis of the deposited data

How the results depend on the processing

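Counts of called genes moved with the processing. On log2(TPM + 1) or log2(TPM + 0.1) all genes called numbered 2939 or 2935, against 4697 with edgeR. On either scale 6 genes of the wider iron list were higher, against 22, and 7 or 6 were lower, against 8. On log2(TPM + 1), 1 iron member was higher, against 3. Leaving out 1 library in turn gave 3094 to 6640 called genes, 2 to 4 higher and 0 lower iron members, 15 to 26 higher and 4 to 13 lower genes of the wider list. No iron member was lower under any of the 17 alternatives. HMOX1, which met the count minimum through the treated libraries alone, passed under all 17, FTL under 16, and ACO1 under 12. The alternatives reuse the same libraries and are not independent of each other.

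Members that missed the threshold changed sign under some settings. On log2(TPM + 1) and log2(TPM + 0.1), where the median of all genes lay at -0.19 and -0.26, FTH1 had -0.0185 and -0.0186, TFRC -0.20 and -0.20, and SLC11A2 -0.10 and -0.12. With the implied length trend removed, HMOX2 had 0.037, IREB2 0.017 and NCOA4 0.061. With the GENCODE length trend removed, chosen after seeing the data, FTH1 had -0.18 and IREB2 0.21. NCOA4 had 3.9e-04 with RLE scaling and 4.0e-04 with DESeq2. Over libraries left out, log2 fold changes ranged from -0.0086 to 0.15 for TFRC, -0.21 to 0.042 for HMOX2, -0.18 to 0.063 for IREB2, and -0.094 to 0.12 for NCOA4. Listed TPM summed to 39.5% of a full total in DMSO replicate 2 and to 57.0% to 69.2% elsewhere, and were not rescaled. The causes of the sign changes were not tested.

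The replicate block gave 4743 called genes, 3 higher iron members and FTL at 1.29, and changed no call of a member. Deviations of libraries sharing a number correlated at 0.039, 0.101 and 0.154, so the numbers were not taken as pairs, although 6 of 6 libraries correlated best with their own number. The ratios kept their direction in every library left out and with a pseudocount of 0.1. Depth limits SLC40A1 and HMOX1.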
